A study of Sus scrofa with 27 samples.

Results

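The 10 genes described here belong to the bone morphogenetic protein (BMP) pathway and were followed in pig lungs kept on ex vivo lung perfusion (EVLP). They are the inhibitors of DNA binding ID1, ID2, ID3 and ID4, the inhibitory SMADs SMAD6 and SMAD7, the receptors BMPR2 and ACVRL1, the co-receptor ENG and the ligand BMP2. They were picked by gene symbol, and all 10 were found among the 31908 genes of the count table with at least 10 counts in some library, so none was dropped. The fall of ID1 at 6h in the dialysed lungs was already known when the list was drawn up. Values of that contrast (PD, 6h against 0h) are therefore given as a description with no p-value, and nothing is read from counts of calls in it.

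The lungs came from 9 Large-White pigs by a non-heart-beating donor procedure and a cold ischemia period, and every lung then underwent EVLP by the Toronto protocol with Steen solution that held methylprednisolone, cefuroxime and heparin. In the Gold Standard (GS) group of 5 pigs (numbered 9, 17, 44, 55 and 77), part of the perfusate was regularly replaced. In the Pediatric Dialysis (PD) group of 4 pigs (2, 3, 4 and 5), a hemodialyzer with a pediatric membrane was placed on the circuit, and the same PD lungs had served in an earlier study at 6h. Each pig gave 1 bulk biopsy at 0h (after cold ischemia, before perfusion), 6h and 12h, which makes 27 libraries. There were no lungs without EVLP, so time on the circuit, the drugs and the perfusion cannot be told apart. The age of the pigs is not given in the sources used here.

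BMP ligands bind a pair of type I and type II receptors at the cell surface, and the receptors phosphorylate SMAD1, SMAD5 and SMAD9, which enter the nucleus with SMAD4 and switch on target genes. The ID genes are the classic early targets: they encode helix-loop-helix proteins without a DNA binding region, which capture E proteins and keep them off DNA. SMAD6 and SMAD7 are targets as well and dampen the signal. In the lung the receptors ACVRL1 and BMPR2 and the co-receptor ENG act chiefly in endothelium, and inherited loss of BMPR2 causes pulmonary arterial hypertension.

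Total counts were 26335584 to 67522703 per library in GS and 14650700 to 21820935 in PD. The ranges do not meet, so depth and any batch of libraries cannot be told apart from the group. Endothelial, epithelial, mesenchymal and leukocyte marker lists all had counts in every library. One PD library stood apart, that of pig 2 at 12h, in which mitochondrial genes took 1.65% of counts against 4.97% to 11.6% in the other PD libraries. The 0h library of PD pig 4 was low in SMAD6 (20 counts), BMPR2 (167 counts), SMAD7 and ENG, and as a denominator it enters every change of that pig. Results in PD are given with and without these libraries where they matter. In bulk biopsies fewer cells of a type and less RNA per cell cannot be told apart.

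ID1 and ID3 were below their 0h level in all 5 GS pigs at 6h and at 12h. Stretches upstream of both are shown here because both fell in that group. The reference is Sscrofa11.1, the build of the count table, with gene starts from RefSeq. ID1 (ENSSSCG00000037016) lies on the plus strand of chromosome 17, from 35315964 to 35317744 in the count table, and ID3 (ENSSSCG00000039514) on the minus strand of chromosome 6, from 81422539 to 81424075. The ID1 stretch is chr17:35315498-35315647, plus strand, upstream of the gene in both annotations, and its capitals mark GGCGCC, 991 to 986 bases before the RefSeq start, and a match to GGCGNCNNNNNGTCT, 937 to 923 bases before it. Both are forms of the GC-rich element at which SMAD complexes of the BMP branch are known to bind DNA. The ID3 stretch is the 250 bases before its RefSeq start, chr6:81424170-81424419, minus strand, and has no capitals because neither motif was found in it.
ID1 upstream: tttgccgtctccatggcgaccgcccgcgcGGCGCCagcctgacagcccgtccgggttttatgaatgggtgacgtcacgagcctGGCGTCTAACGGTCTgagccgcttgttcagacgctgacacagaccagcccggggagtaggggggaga
ID3 upstream: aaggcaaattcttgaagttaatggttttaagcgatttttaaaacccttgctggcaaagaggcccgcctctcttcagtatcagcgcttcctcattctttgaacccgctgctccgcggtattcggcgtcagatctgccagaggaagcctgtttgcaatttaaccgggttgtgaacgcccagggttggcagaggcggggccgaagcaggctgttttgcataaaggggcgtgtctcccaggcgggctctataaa

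Both motifs were searched on both strands, and a GGCGCC can itself begin a match to the longer one. Among the 10 members, ID1 alone held the longer motif within 2000 bases upstream, as did 0.849% of 19559 such windows in the genome. GGCGCC was found within 2000 bases of ID1, ID4, BMPR2 and BMP2 and in 29.8% of all such windows. BMP2 was the one member with GGCGCC within 250 bases of its start, a window in which 16.1% of genes hold it. A match is a description of letters, and these libraries hold no measure of binding.

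Before perfusion ID1 was at 39.5, 42.3, 49.6, 27.8 and 27.6 CPM (counts per 1000000 in the library, scaled by TMM) in GS pigs 9, 17, 44, 55 and 77. At 6h it was at 7.55, 20.6, 8.59, 15.7 and 18.3 CPM, and at 12h at 9.60, 23.3, 9.47, 13.1 and 24.4 CPM. Every GS library at 6h and at 12h was thus below every GS library at 0h. By edgeR's quasi-likelihood test with the pig as a block, ID1 fell by 1.57 on the log2 scale at 6h (SE 0.29, adjusted p = 0.00253, n = 5 pigs) and by 1.45 at 12h (SE 0.29, adjusted p = 0.00244). The fall differed between pigs. Pigs 9 and 44 dropped by 2.38 and 2.53 at 6h, whereas pig 77 dropped by 0.59.

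ID3 was the more abundant of the pair per kilobase of exon, with 162 CPM per kb on average in GS at 0h against 37.5 for ID1. Its levels in GS at 0h were 129, 189, 197, 137 and 122 CPM in the same pig order. They stood at 24.0, 41.1, 34.6, 41.8 and 45.4 CPM at 6h and at 42.5, 65.6, 29.2, 34.1 and 57.2 CPM at 12h. The highest of the 10 perfused GS libraries was well below the lowest unperfused one (65.6 against 122 CPM). ID3 fell by 2.10 on the log2 scale at 6h (SE 0.22, adjusted p = 0.000134) and by 1.86 at 12h (SE 0.21, adjusted p = 0.000104) by the same edgeR test.

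BMP2, a ligand of the pathway (ENSSSCG00000039442, chromosome 17, 15749835 to 15761215, plus strand), moved the other way. In GS it was at 7.17, 8.66, 8.63, 9.29 and 10.8 CPM at 0h. It reached 18.4, 19.4, 37.1, 36.7 and 53.3 CPM at 6h and 15.2, 39.7, 54.7, 75.2 and 50.7 CPM at 12h. No perfused GS library overlapped the 0h libraries. BMP2 rose by 1.75 on the log2 scale at 6h (SE 0.24, adjusted p = 0.000546) and by 2.19 at 12h (SE 0.25, adjusted p = 8.85e-05) by edgeR's quasi-likelihood test. Per kilobase of exon it was the lowest of the 10 members at 0h, with 2.02 CPM per kb in GS, and at 12h it reached 10.7, above SMAD6 at 4.51.

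Calls against 0h needed both an adjusted p below 0.05 and a change of 2-fold or more. The members were chosen with earlier results of these data known, so their counts beside shares of all genes are a description. In GS at 6h, 2 of the 10 members were called lower (ID1 and ID3), where 5.56% of 18594 tested genes were, and 1 was called higher (BMP2), where 5.5% were, so that 3 of 10 stood beside 11.1% in either direction. At 12h ID1, ID3 and BMP2 were the members called again, against a background of 8.66% lower, 6.99% higher and 15.7% in either direction. At 6h levels without overlap and below 0h were found for ID1 and ID3 and for 4.89% of all genes, and above 0h for BMP2 and for 6.02% of genes. At 12h these shares of genes were 5.11% below and 7.55% above, with the same members. The 3 calls held at both times under every alternative tried, including each pig left out in turn. At an unadjusted p under 0.05 there were 7 of 10 members at 6h, beside 7653 of 18594 genes, and 6 of 10 at 12h, beside 9014 genes.

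**Figure D1:**
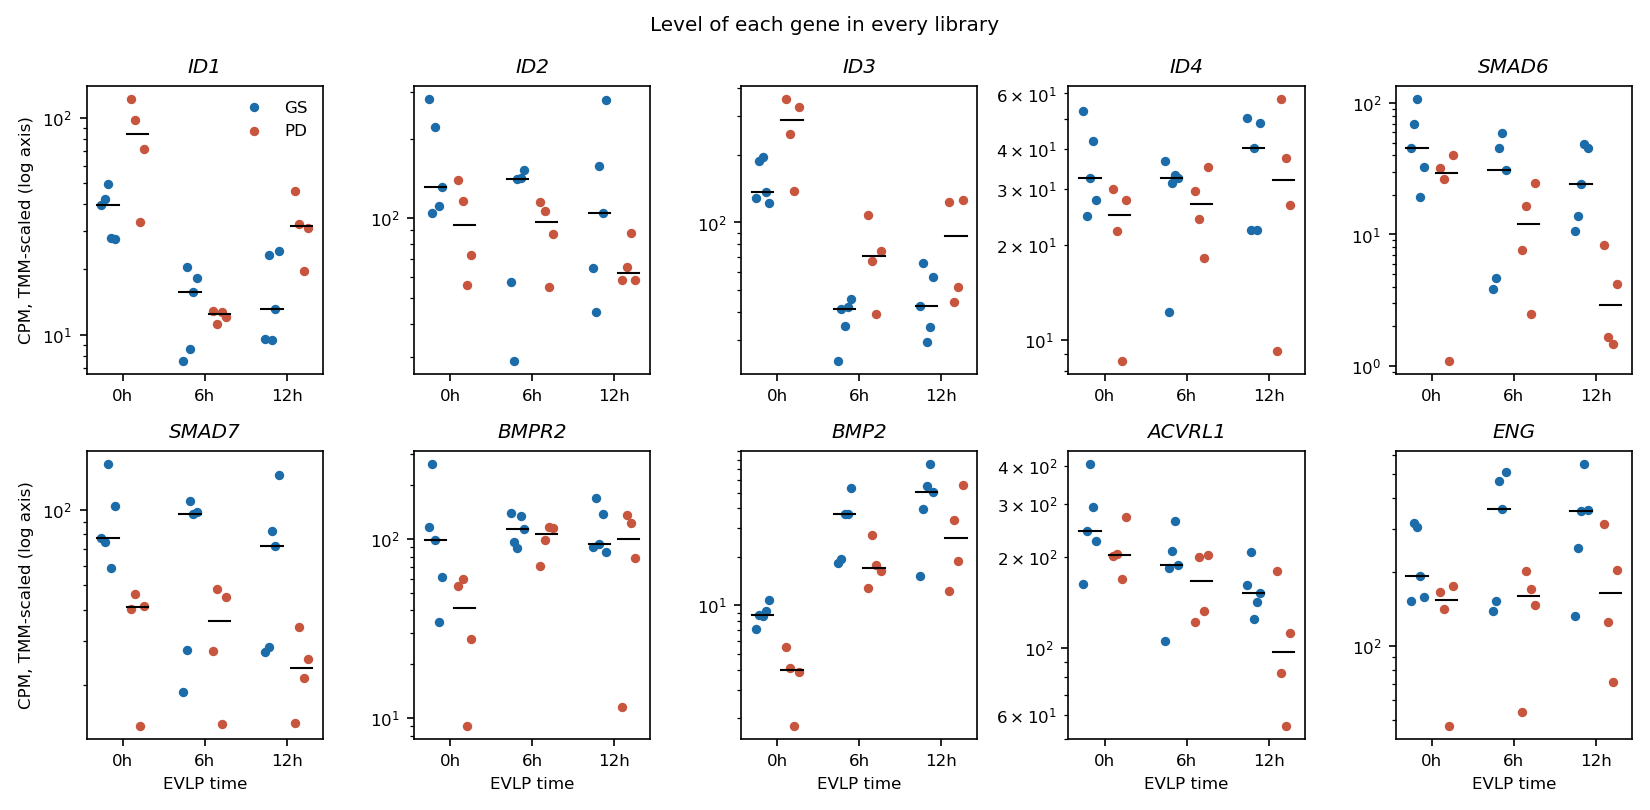
Level of each of the 10 genes in all 27 libraries, as TMM-scaled CPM on log axes, by EVLP time (0h, 6h, 12h) for GS (blue) and PD (red); each point is a library and each bar the group's median. ID1 and ID3 are lower and BMP2 is higher in the perfused GS libraries, while SMAD6, SMAD7 and ID2 spread widely in GS at 6h and 12h.

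In PD the same 3 genes moved in the same directions in all 4 pigs, which for ID1 is a description only. ID1 was at 122, 97.3, 33.1 and 71.6 CPM in pigs 2, 3, 4 and 5 at 0h. At 6h the 4 libraries lay close together at 12.9, 11.2, 12.8 and 12.04 CPM, and at 12h they were at 45.8, 32.4, 19.7 and 31.0 CPM. The 6h libraries were therefore below all others of the group. Described without a test, the ID1 change at 6h was −2.59 on the log2 scale (SE 0.37). At 12h, against the same 0h libraries and so also as a description, the change was −1.25 (SE 0.35), and it was −1.36 without the 12h library of pig 2.

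From 6h to 12h ID1 went up in each of the 4 PD pigs, by 1.33 on the log2 scale in the fit (SE 0.36), and the levels at both times did not overlap, as for 2.59% of genes in that direction. The comparison shares its 6h libraries with the contrast that drew attention to ID1, so these values are a description and nothing is read from the share. No member was called between 6h and 12h by edgeR in either group, and neither was any other gene (0% of genes tested in GS and 0% in PD, with 882 and 1562 at an unadjusted p under 0.05 and 2 and 235 called by DESeq2). With ID1 in PD left aside, the members at an unadjusted p under 0.05 numbered 0 in GS and 1 in PD (SMAD6), and DESeq2 called 0 in either group.

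ID3 in PD was at 356, 248, 139 and 326 CPM at 0h. It was at 108, 67.1, 38.8 and 74.5 CPM at 6h and at 123, 44.1, 51.2 and 126 CPM at 12h, with every perfused library below every library at 0h, as for 4.76% of genes at 6h and 9.82% at 12h. The 6h change was −1.92 (SE 0.32), and the 4 pigs lay between −2.13 and −1.73. At 12h ID3 fell by 1.67 on the log2 scale (SE 0.32, adjusted p = 0.0212 by edgeR's quasi-likelihood test). Without the 12h library of pig 2 it fell by 1.74 (adjusted p = 0.00567), and it was not called without pig 3, 4 or 5 (−1.44, −1.71 and −1.78, with adjusted p of 0.218, 0.0588 and 0.254, edgeR).

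BMP2 in PD was at 5.55, 4.08, 1.79 and 3.88 CPM at 0h, from 33 to 103 counts. It stood at 12.7, 27.1, 17.7 and 16.3 CPM at 6h and at 12.3, 33.7, 18.8 and 55.4 CPM at 12h. The libraries at 0h lay below all perfused ones, as for 6.13% of genes at 6h and 8.14% at 12h. The 6h change was 2.26 (SE 0.47). At 12h BMP2 rose by 2.87 on the log2 scale (SE 0.49, adjusted p = 0.0176 by edgeR's quasi-likelihood test), by 3.21 without the 12h library of pig 2 and by 2.76 without pig 4 (adjusted p = 0.00212 and 0.0403). It was not called without pig 3 (2.80, adjusted p = 0.176) or without pig 5 (2.47, adjusted p = 0.254, edgeR).

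At 12h in PD, 1 of the 10 members was called lower (ID3), where 2.76% of 15545 tested genes were, and 1 higher (BMP2), where 3.22% were, and 5.98% were called in either direction. This comparison shares its 0h libraries with the contrast at 6h. At 6h the 1 member called was ID1 itself, where 0.142% of genes were called (0.135% higher and 0.00643% lower), and nothing is read from that count. Without the 12h library of pig 2 the count of called members at 12h was 6, and the additional genes were ID1, SMAD6, BMPR2 and ACVRL1, in a fit that called 4161 of 15875 genes against 930 of 15545 with the library. It was 0 without pig 3 or without pig 5, fits that called 0 genes in all, and 1 without pig 4, where 399 of 15641 genes were called.

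**Figure D2:**
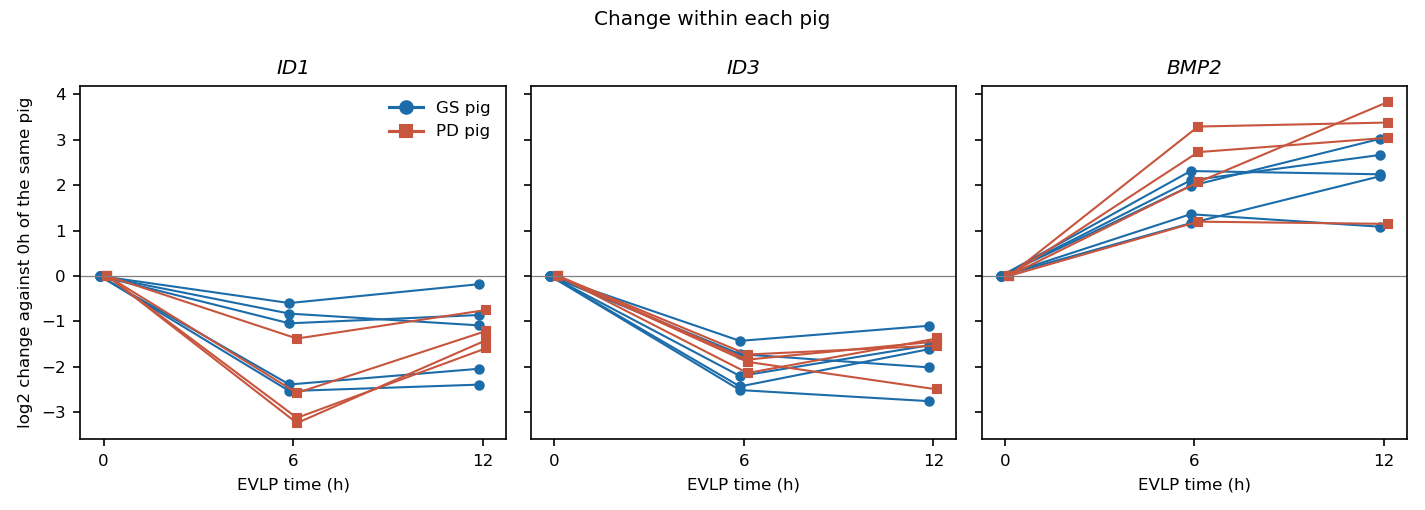
Change of ID1, ID3 and BMP2 within each pig, as log2 of the scaled level over that of the same pig at 0h (y axis) against EVLP time in hours (x axis), with a line for each of the 5 GS pigs (blue circles) and 4 PD pigs (red squares). All lines for ID1 and ID3 lie below 0 and all lines for BMP2 above 0, and the ID1 lines of the PD pigs turn upward after 6h.

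Whether dialysis altered these changes was tested as the interaction of group and time over all 27 libraries. No member was called at either time, as no gene of 17884 was (0% at 6h and 0% at 12h, with 1046 and 1069 genes at an unadjusted p under 0.05 and 7 and 15 called by DESeq2). With ID1 left aside, no member had an unadjusted p under 0.05 at either time, and DESeq2 called 0 members at both. The ID1 change at 6h was lower in PD than in GS by a difference of −1.03 on the log2 scale (SE 0.46), a value that includes the contrast by which ID1 was chosen. At 12h the ID1 difference was 0.16 (SE 0.45), also a description, since it rests on the same PD libraries at 0h. ID3 differed by 0.17 (SE 0.35) at 6h and by 0.17 (SE 0.36) at 12h, and BMP2 by 0.50 (SE 0.50) and 0.65 (SE 0.51), with adjusted p-values in edgeR of 0.838 to 0.968 for these 4 differences. The per-pig changes of PD and GS overlapped for each of the 10 members at both times, whereas 3.08% of genes did not overlap at 6h and 2.13% at 12h.

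ID2 and ID4 were not called in GS at either time or in PD at 12h. ID2 was at 282, 104, 220, 112 and 132 CPM at 0h in GS pigs 9, 17, 44, 55 and 77, and at 57.7, 28.9, 141, 142 and 152 CPM at 6h. Pigs 9 and 17 were low at 6h and the other three were not. The fitted change was −0.98 (SE 0.38, adjusted p = 0.0713, edgeR's quasi-likelihood test) at 6h and −0.75 (SE 0.38, adjusted p = 0.138) at 12h. In PD it was −0.06 (SE 0.34) at 6h and −0.39 (SE 0.35, adjusted p = 0.529) at 12h. ID4 changed by −0.38 and −0.07 in GS and by 0.30 and 0.61 in PD at 6h and 12h, none of which passed in GS or in PD at 12h, and in PD at 12h it ranged from 9.24 to 57.6 CPM.

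SMAD6 and SMAD7, the inhibitors that BMP signalling itself induces, differed between the GS pigs, as did ID2. SMAD6 in GS at 0h was at 45.8, 68.9, 107, 19.4 and 32.5 CPM. At 6h it was at 3.85, 4.64, 45.4, 59.8 and 31.3 CPM, so that pigs 9 and 17 were more than 3 log2 units down (−3.57 and −3.89) while pig 55 was up by 1.63. SMAD7 went from 77.2, 74.5, 153, 58.5 and 104 CPM to 18.7, 27.6, 109, 96.8 and 97.8 CPM, with the same pair of pigs lowest. The fitted GS changes at 6h were −1.62 for SMAD6 (SE 0.67, adjusted p = 0.0871) and −0.75 for SMAD7 (SE 0.32, adjusted p = 0.0978), neither past the threshold of edgeR's quasi-likelihood test. Leaving out pig 55 brought ID2, SMAD6 and SMAD7 under it at 6h (adjusted p = 0.0399, 0.0208 and 0.0285, edgeR), and leaving out pig 77 brought ID2 under it at 6h and 12h (adjusted p = 0.0422 and 0.0278). At 12h the log2 changes of SMAD6 in pigs 9, 17, 44, 55 and 77 were −2.11, −2.31, −2.14, 1.34 and 0.48, so that pig 44 was down with pigs 9 and 17. SMAD7 at 12h changed by −1.51, −1.40, −0.88, 0.29 and 0.41 in the same order. The fitted changes at 12h, −1.40 for SMAD6 (SE 0.64, adjusted p = 0.0999) and −0.78 for SMAD7 (SE 0.32, adjusted p = 0.0701), missed the threshold and passed it without pig 55 for SMAD6 (−1.77, adjusted p = 0.0372) and without pig 77 for SMAD7 (−1.06, adjusted p = 0.0338), all by edgeR.

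Pigs 9 and 17 were also the shallower GS libraries, with 26335584 to 41802541 counts against 51708598 to 67522703 in pigs 44, 55 and 77. The part of depth in the differences between GS pigs was not tested. In PD at 12h SMAD6 was at 8.26, 1.64, 1.47 and 4.19 CPM against 32.3, 26.6, 1.08 and 40.6 CPM at 0h. Pigs 2, 3 and 5 were below their own 0h level, and pig 4, at 1.47 CPM, was low at both times. The fitted change was −2.18 (SE 0.68, adjusted p = 0.0794) by edgeR's quasi-likelihood test, and −2.74 (adjusted p = 0.0166) without the 12h library of pig 2. SMAD7 in PD changed by −0.46 (SE 0.37, adjusted p = 0.475, edgeR) at 12h. Its log2 changes at 12h ran from −1.50 in pig 2 to 0.63 in pig 4. For SMAD6 they ran from −3.99 in pig 3 to 0.44 in pig 4. Pigs 2, 3 and 5 were down in both genes, and neither gene was called at 12h without pig 4.

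Among the receptors, ACVRL1, the endothelial type I receptor also called ALK1, was lower than at 0h in all 5 GS and all 4 PD pigs at both times, by log2 changes from −0.0082 in GS pig 9 to −1.71 in GS pig 44, both at 12h. In GS it was at 162, 244, 407, 294 and 226 CPM at 0h, at 106, 184, 210, 264 and 189 CPM at 6h and at 162, 208, 125, 142 and 152 CPM at 12h. The libraries of 0h and 12h overlapped. The log2 change at 12h was −0.76 (SE 0.22, adjusted p = 0.0162 by edgeR's quasi-likelihood test), under 2-fold, and at 6h it was −0.52 (SE 0.22, adjusted p = 0.0901). In PD it was −0.38 (SE 0.37) at 6h and −1.03 (SE 0.38, adjusted p = 0.13) at 12h, and −1.50 (adjusted p = 0.00646) without the 12h library of pig 2.

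BMPR2, the type II receptor, did not change in a shared direction in GS, where its log2 changes at 6h ran from −1.45 in pig 17 to 1.96 in pig 55. In PD it was at 54.8, 59.8, 9.05 and 27.9 CPM at 0h and at 70.4, 99.2, 117 and 116 CPM at 6h, higher in each pig and without overlap, as were 6.13% of genes. The 6h change was 1.41 (SE 0.69), and 0.96 without pig 4, whose 0h level was the lowest. At 12h it was 137, 123 and 78.1 CPM in pigs 3, 4 and 5 but 11.6 CPM in pig 2, and the fitted change of 1.07 (SE 0.72, adjusted p = 0.391) by edgeR's quasi-likelihood test became 1.72 (adjusted p = 0.0268) without that library and 0.37 without pig 4. ENG, the co-receptor that partners ACVRL1, changed by 0.35 and 0.33 at 6h and 12h in GS. In PD it changed by 0.34 and 0.47. It did not pass the threshold in GS or in PD at 12h. Its sign in PD turned at 12h without the 12h library of pig 2, and at 6h among the fits that each left out a pig. FPGS overlaps ENG on the opposite strand (16999 counts in all against 266791), and whether counting used strand is not given in the sources used here.

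**Figure D3:**
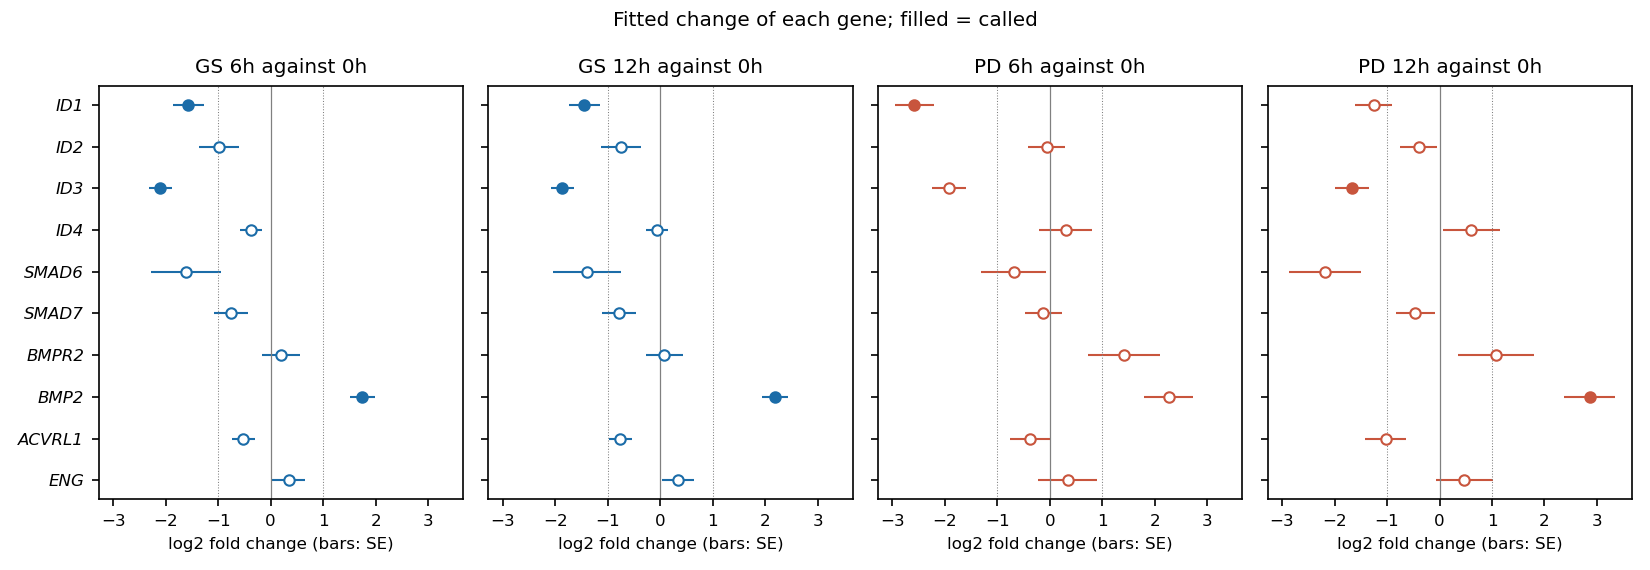
Fitted log2 fold change against 0h of each gene (x axis; bars are the SE) in GS and PD at 6h and 12h; filled points (in PD at 6h only ID1, the value that drew attention to it) were called at an adjusted p under 0.05 and at least 2-fold (dotted lines), open points were not. ID1, ID3 and BMP2 lie beyond 2-fold in all 4 panels. The error bars of every gene but ID2 and SMAD6 are wider in PD than in GS at both times.

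Likeness between members was measured as the mean absolute difference of their log2 changes over the 18 values of 9 pigs at 2 times. ID2 and SMAD7 were the nearest pair at 0.304, and ID1 and ID3 came next at 0.654. The genes nearest to ID1 outside the list were NRROS, ZSWIM3 and SPIB, at 0.688 to 0.749, where the median of 13020 genes was 1.68. For SMAD6 they were CACNA1B, LRRC25 and PRSS35 at 0.954 to 0.989 (median 1.93), and for ACVRL1 ZNF710, PPM1F and THTPA at 0.266 to 0.32 (median 0.916). A gene that changes little is near to others that change little, so these distances are not to be compared between ID1 and ACVRL1.

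The levels before perfusion already differed between the groups. At 0h 2 members were higher in PD. ID1 had a log2 difference of 1.19 (SE 0.32), a description, since the PD libraries at 0h are those of the contrast that drew attention to it. ID3 was higher by 0.86 on the log2 scale (SE 0.27, adjusted p = 0.0227, edgeR's quasi-likelihood test). SMAD7 had a log2 difference of −1.33 (SE 0.36, adjusted p = 0.011) and BMP2 of −1.14 (SE 0.31, adjusted p = 0.011), both lower in PD. The libraries of the groups did not overlap for SMAD7 and BMP2, each lower in PD as were 18.7% of genes without overlap. Of all 16477 genes tested 21.3% were called higher and 19.3% lower in PD at 0h, so that 4 of 10 members is close to the background of 40.6%. Without PD pig 4 the difference was 1.44 for ID1, and the other calls held at 1.07 for ID3, −1.06 for SMAD7 and −0.91 for BMP2 (adjusted p of 0.00197 to 0.0105, edgeR). ID3 lost its call without GS pig 55 or 77 or PD pig 2 or 5 (0.70 to 0.79, adjusted p of 0.0574 to 0.0777, edgeR). BMPR2, not called in the full fit (−1.54, adjusted p = 0.0586), was called lower without GS pig 55 or 77 (adjusted p = 0.0244 and 0.0463, edgeR) and by DESeq2 (adjusted p = 0.0153). Marker lists differed as well, with 2 of 12 endothelial markers higher and 5 lower and 5 of 8 leukocyte markers lower in PD. Of 7 mesenchymal markers 1 was higher and 4 were lower, with a median log2 difference of −1.19. Of 8 epithelial markers 1 was higher (SFTPC, by 3.56 on the log2 scale) and 1 lower (SFTPB, −1.35), and their median was 0.15. Their part in the differences was not tested.

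Across the 6 sets of libraries ID1 averaged 80.9 ± 37.9 CPM in PD at 0h, 37.4 ± 9.56 in GS at 0h, 32.2 ± 10.7 in PD at 12h, 16.0 ± 7.35 in GS at 12h, 14.1 ± 5.81 in GS at 6h and 12.2 ± 0.793 in PD at 6h (SD, n = 5 in GS and 4 in PD). Each set in this order overlapped the next. For BMP2 the order was 47.1 ± 22.0 CPM in GS at 12h, 33.0 ± 14.5 in GS at 6h, 30.1 ± 19.1 in PD at 12h, 18.5 ± 6.13 in PD at 6h, 8.90 ± 1.30 in GS at 0h and 3.82 ± 1.55 in PD at 0h. The last 3 sets did not overlap one another as neighbours, and the others did.

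The endothelium, where much of this pathway acts, showed no shared loss of its markers. Summed over 12 endothelial markers, GS libraries were at 2373 to 3692 CPM at 0h, 1880 to 4063 at 6h and 2398 to 4331 at 12h, and PD libraries at 1990 to 2411, 1924 to 3430 and 1729 to 2598 CPM. The sums overlapped between times in both groups. One marker, KDR, was called lower in GS at 6h (−1.15, SE 0.18, adjusted p = 0.00115, edgeR's quasi-likelihood test), and none was called in GS at 12h or in PD at 12h. Under 2-fold, the markers that passed the adjusted p in edgeR in GS were TEK (−0.50) and ESAM (0.54) at 6h, and KDR (−0.96), TEK (−0.62), EMCN (−0.48) and PECAM1 (0.44) at 12h, with adjusted p of 0.00182 to 0.0463. Among epithelial markers in GS, EPCAM was called higher at 6h and 12h (1.09 and 1.58 on the log2 scale), and at 12h CDH1 was called higher (1.24) and SCGB1A1 lower (−1.61). The part of cell makeup in the members' changes was not tested.

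Of 47 other genes of the pathway, 40 were tested in GS and 39 in PD. This list too was drawn up with earlier results of these data known, so its counts are a description. In GS at 6h 3 were called higher and 3 lower, and at 12h 3 higher and 4 lower. In PD at 6h none was called either way, and at 12h 1 was called higher and 1 lower. These are 6 and 7 of 40 in GS, beside 11.1% and 15.7% of all genes, and 2 of 39 in PD at 12h, beside 5.98%. The list's median change lay between −0.05 and 0.06 on the log2 scale in these 4 comparisons, beside −0.08 to −0.02 over all genes. None of the listed receptors, co-receptors, signal transducing SMADs or membrane and intracellular inhibitors was called in any of the 4.

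MSX2, a homeobox target of BMP signalling, rose from 15 to 120 counts per GS library at 0h to 126 to 1342 at 6h. In GS the log2 fold change was 3.16 (SE 0.43, adjusted p = 0.000522) at 6h and 3.04 (SE 0.43, adjusted p = 0.000327) at 12h by edgeR's quasi-likelihood test. It also rose in PD at 12h, from 5, 1, 0 and 3 counts in pigs 2, 3, 4 and 5 to 7, 48, 26 and 55 (adjusted p = 0.0298, edgeR), a ratio of pooled scaled counts of 19.1 (95% interval 9.76 to 42.6, exact, counting error only). At 0h 5 genes of the list were called higher and 6 lower in PD, 11 of 39 beside 40.6% of all genes, and the most distant were MSX2, with a log2 difference of −3.17 (SE 0.71), and SMAD9 (−1.93), a signal transducing SMAD, with SKI (−1.73), a repressor of SMAD activity. Of the 6 targets in the list, MSX2 was called higher and HEY1 lower in GS at both times (HEY1 −1.19 at 6h and −1.08 at 12h), and ATOH8 (−0.84, adjusted p = 0.0247) and HEY2 (−0.68, adjusted p = 0.0401) at 6h passed the adjusted p in edgeR but not the 2-fold limit. At 12h HEY2 (−0.68, adjusted p = 0.0308) and TMEM100 (−0.81, adjusted p = 0.0445) did likewise in edgeR.

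SOSTDC1, a secreted BMP antagonist, fell in GS by 2.47 (SE 0.70, adjusted p = 0.0196) at 6h and by 2.98 (SE 0.71, adjusted p = 0.00585) at 12h on the log2 scale in edgeR's quasi-likelihood test. GDF5, a ligand, was called higher in GS at both times but rested on 8 counts over 5 libraries at 0h against 49 at 6h and 50 at 12h (ratios of pooled scaled counts 6.96, 95% interval 3.27 to 17.02, and 7.27, 3.42 to 17.8, exact, counting error only). BMP5, also a ligand, fell in PD at 12h by 1.55 (SE 0.39, adjusted p = 0.0416) and in GS at 12h by 1.28 (SE 0.26, adjusted p = 0.0023). Named after their values were seen, the other calls in GS were FSTL3, an antagonist of activins, higher at 6h and 12h, HEY1, a Notch and BMP target, lower at 6h and 12h, the antagonist GREM1 lower at 6h and the ligand BMP3 lower at 12h.

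**Figure D4:**
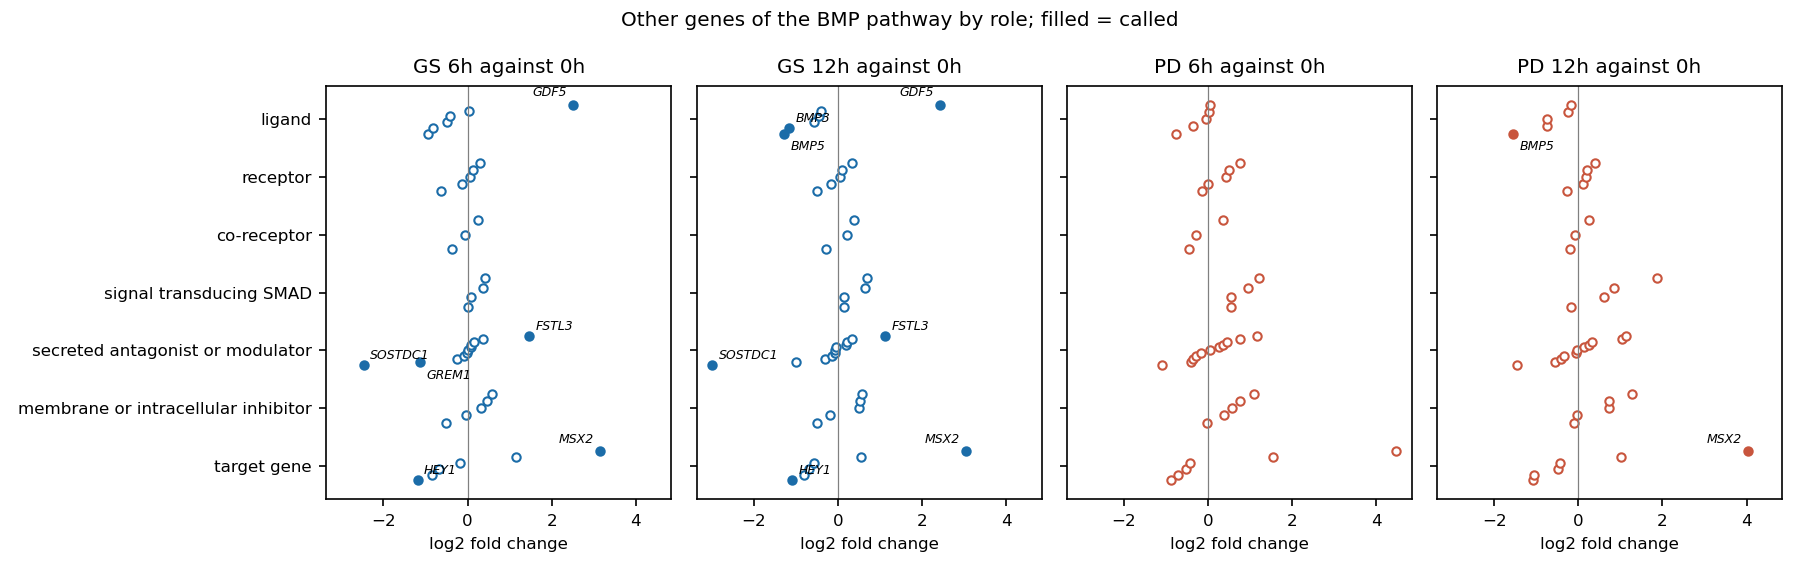
Log2 fold change against 0h (x axis) of the tested genes among 47 other genes of the BMP pathway, in rows by role, for GS and PD at 6h and 12h; filled points with names were called, open points were not. Receptors, co-receptors and signal transducing SMADs hold no filled point, and MSX2 lies farthest to the right in each panel.

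The E proteins TCF3, TCF4 and TCF12, which the ID proteins capture, were not called against 0h in either group. TCF4 came nearest, with −0.49 (SE 0.18, adjusted p = 0.0615) at 6h and −0.50 (SE 0.18, adjusted p = 0.0455, under 2-fold) at 12h in GS by edgeR's quasi-likelihood test. SMAD2, which carries the signal of the related TGF-beta branch and is named here after its values were seen, fell by 1.01 in GS at 6h, by 1.02 in GS at 12h and by 1.45 in PD at 12h on the log2 scale (adjusted p = 0.00305 at 6h in GS and 0.0365 at 12h in PD, edgeR's quasi-likelihood test). Most of the 10 genes listed for that branch went the other way. In GS at 6h 9 had a positive change, and at 12h 8 did in GS and 8 in PD. The median log2 changes of the list were 0.28, 0.36 and 0.50 in the same order.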

How the data were processed

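The deposited table holds counts of reads per gene, which the authors made with Cutadapt 1.15, TopHat2 2.0.14 and the Ensembl annotation of Sscrofa11.1 from stranded TruSeq mRNA libraries. The submitters' processing notes also name featureCounts from Subread 1.6.0. Strand and handling of multiply mapped reads are not given in the sources used here, nor is which library came from which of the 2 extraction kits. No reads were realigned.

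Counts were fitted per group in edgeR 4.0.16 (R 4.3.3, limma 3.58.1) by two-sided quasi-likelihood F tests with robust dispersion, after filterByExpr and TMM, with Benjamini-Hochberg adjustment over all genes tested. The 3 biopsies of a pig come from the same animal, so the pig was a block. Residuals of same-pig libraries correlated in GS (mean r 0.511) and less in PD (0.108). SE is the log2 fold change divided by the root of F. Per-pig changes and levels are TMM-scaled CPM, with 0.5 added to counts for changes. Comparisons of 12h with 6h and of groups at 0h, and the interaction, were called at adjusted p alone. Intervals are exact at 95%, and 3 counts (at most 0.114 CPM in GS and 0.205 in PD) were the floor. Levels per kilobase use the union of RefSeq exons.

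Symbols came from the table for 16719 genes and from an NCBI name table for 782 more. No library repeated another (chi-square over degrees of freedom of at least 36.4 for any pair). In data simulated with 200 changed genes, edgeR recovered 198 in GS and 131 in PD at 6h against 0h (18594 and 15545 genes), 144 for the interaction at 6h (17884) and 183 at 0h (16477), with 11, 9, 5 and 12 false calls. Every planted change was well above the 2-fold limit, and no differences between pigs were simulated. The rates do not measure the recovery of smaller changes, such as the members' interaction differences.

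All members were named, with the 3 genes of the pathway list that changed most among those called in each comparison, and the 3 genes nearest to ID1, SMAD6 and ACVRL1. Members and lists were chosen with earlier results of these data known, so counts of calls beside shares of all genes are descriptions. Alternatives were no block, DESeq2 1.42.0, DESeq2 size factors, no filter, no fold threshold, one fit of all libraries, rank-sum tests of per-pig changes, and each pig left out. The fit without the 12h library of PD pig 2 was added after seeing the data. One result of the TGF-beta branch is not reported here.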

Additional observations from a re-analysis of the deposited data

Results flagged for a closer look

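Of 100 groups of 4 or 5 values of the members, 6 held a library far from the others by Dixon's criterion, where chance alone gives about 1 in 20. Of these, 3 are the 0h library of PD pig 4, in which SMAD6 was at 0.152 on the log2 CPM scale (20 counts) against 4.74 to 5.34 in the other PD pigs, SMAD7 at 3.78 against 5.33 to 5.53, and ENG at 5.56 against 7.14 to 7.45. In that library the 10 most abundant genes took 18.2% of counts, the most of all 27. ID4 in GS at 6h was at 3.62 on the log2 CPM scale in pig 17 against 4.97 to 5.2 in the other pigs. The log2 change of ID3 in PD at 12h was −2.49 in pig 3 against −1.53 to −1.37 in the others. The log2 change of SMAD7 in PD at 6h was −0.559 in pig 2 against 0.0269 to 0.109. No member's change was called different between PD and GS.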

How the results depend on the processing

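The GS calls of ID1, ID3 and BMP2 held under every alternative. Of the single values, 442 kept their direction and side of the threshold when no pig was left out, 22 passed it and 16 turned sign. With each pig left out, 483 kept both, 15 passed, 12 lost the call and 30 turned sign. None of the values that turned sign was called. Counts of called members ranged, with each pig left out, from 3 to 6 in GS at 6h (6 without pig 55, where 1723 of 18423 genes were called), 3 to 5 in GS at 12h (5 without pig 77, where 2870 of 18304 genes were called), 0 to 3 in PD at 6h (0 without pig 3, 4 or 5), 0 to 6 in PD at 12h and 3 to 4 at 0h, where ID3 lost its call without GS pig 55 or 77 or PD pig 2 or 5. In PD at 6h (1 called, in the contrast that drew attention to ID1, so nothing is read from it) the count was 2 with no replicate block and 3 each with DESeq2, with no filter, with one fit of all libraries and without the 12h library of pig 2. In PD at 12h (2 called) it was 3 with no replicate block, 4 with DESeq2, 5 with one fit and 6 without that library. For 12h against 6h in PD (0 called) it was 1 with DESeq2 and 1 with one fit. The cause was not tested. The replicate block is part of the design, and without it the pairing of pigs is ignored. The count of members then moved in PD at 6h and at 12h as given. Over all genes, 1123 in place of 2057 were called in GS at 6h and 1896 in place of 2911 in GS at 12h. For PD these counts were 100 in place of 22 at 6h and 1460 in place of 930 at 12h. The counts of all genes in PD depend strongly on the fit: at 6h 428 with DESeq2, 479 with one fit, 103 with no filter and 252 without the 12h library of pig 2, and at 12h 2560, 3300, 901 and 4161. Without PD pig 2, 254 and 153 genes passed for the interaction at 6h and 12h, and no member did. With no fold threshold GS calls were 5295 and 7136.

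Signs turned with no replicate block for BMPR2 in GS (−0.039 at 6h, −0.080 at 12h), SMAD6 in GS at 12h against 6h (−0.049), SMAD6 in the interaction at 6h (−0.036) and ID1 (−0.027), ID2 (−0.056), SMAD7 (−0.088) and ENG (−0.029) in the interaction at 12h. ENG in GS at 12h against 6h became 0.0090 with DESeq2, 0.00898 with DESeq2 size factors and 0.0038 with one fit, and in the interaction at 12h −0.084 by rank-sum. Without the 12h library of PD pig 2, ENG became −0.14 at 12h and −0.29 at 12h against 6h, BMPR2 0.15 at 12h against 6h and ENG −0.49 in the interaction at 12h. With each pig left out, the range was −0.12 to 0.62 for BMPR2 in GS at 6h, and −0.27 to 0.36 for BMPR2 and −0.26 to 0.13 for ID4 in GS at 12h. In GS at 12h against 6h it was −0.26 to 0.024 for BMPR2, −0.18 to 0.15 for ENG and −0.18 to 0.12 for SMAD7. In PD at 6h it was −0.19 to 0.0071 for ID2, −0.22 to 0.038 for SMAD7 and −0.24 to 0.71 for ENG. In PD at 12h against 6h it was −0.55 to 0.74 for ENG and −0.076 to 0.72 for ID4. In the interaction at 6h it was −0.016 to 0.23 for ACVRL1 and −0.63 to 0.35 for ENG. In the interaction at 12h it was −0.14 to 0.45 for ID1, −0.076 to 0.74 for ID2, −0.071 to 0.45 for ID3, −0.095 to 0.60 for SMAD7 and −0.19 to 0.39 for ENG. Depth limits SMAD6 and BMP2 most, with as few as 20 and 33 counts in a library.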
